A study of Mus musculus with 2 samples.

Results

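The tumour necrosis factor (TNF) ligand and receptor superfamilies were described in regulatory T cells. Members were the protein-coding genes whose GENCODE M21 symbol begins with Tnfrsf or Tnfsf, together with Cd27, Cd40, Cd40lg, Cd70, Fas, Fasl, Ltbr, Ngfr, Tnf, Lta and Ltb. This gave 43 members of 55536 annotated genes (22028 of them protein-coding), 25 receptors and 18 ligands, where the read-through gene Tnfsfm13 was counted as a ligand. The rule used symbols only and no measured value. The superfamily genes Relt, Eda, Edar and Eda2r carry other symbols and are given separately.

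The cells were inflammation-experienced regulatory T cells of male mouse origin at 7 weeks of age, described in the labels as primary cells that came from activated regulatory T cells. Polyadenylated RNA was sequenced from 1 biological replicate in 2 technical replicates, called library 1 and library 2 here. The labels name no other group, treatment or genotype, and do not give the tissue, the way the cells were sorted or the inflammatory stimulus. Every difference and every SD (n = 2) below is therefore between libraries labelled as technical replicates, not between animals, and the labels do not say whether they came from separate RNA preparations.

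TNF family ligands are mostly trimeric proteins anchored in the membrane, and many can be cut free. Their receptors fall into those that bind TRAF adaptors and activate NF-kappaB, those with a cytoplasmic death domain that can also start apoptosis, and decoys that bind ligand without signalling. Regulatory T cells are known for high levels of the costimulatory receptors GITR (Tnfrsf18), OX40 (Tnfrsf4), 4-1BB (Tnfrsf9) and TNFR2 (Tnfrsf1b), which support their survival and expansion.

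Library 1 held 26593267 expected counts over annotated genes and library 2 held 22036331. Where no read was counted, up to 3 counts remain possible, which is 0.113 CPM in the first library and 0.136 CPM in the second. The 7 markers of regulatory T cells were all detected, with the lineage factor Foxp3 at TPMs of 87.3 and 87.4 (here and below, the first of a pair of values is library 1). The libraries differed by far more than counting error over the 24253 genes tested (chi-square over degrees of freedom 33.5). They also differed in markers of other cells. Summed TPM went from 8494 in library 1 to 94.7 in library 2 for 6 erythroid genes, with Hba-a2 and Hbb-bs highest, and from 10.2 to 86.2 for 8 macrophage genes. It went from 632 to 575 for 8 B cell genes, from 192 to 313 for 6 NK cell genes, led by Nkg7 and Klrk1, from 27.0 to 13.5 for Cd8a and Cd8b1, and from 93.2 to 87.2 for 6 genes of stroma, endothelium or epithelium, a sum led by Pecam1 and Epcam, while the other 4 of them were at least 2-fold higher in library 2, such as Col1a1 with 13 and 67 counts and Krt8 with 1 and 35. The NK cell sum was made up mostly of Nkg7, at 153.3 and 233.0, and Klrk1, at 32.1 and 72.2. These genes and Eomes were called higher in library 2. Klrb1c had 148 and 99 counts and was not called, and Ncr1 (0 and 5) and Klre1 (2 and 1) had too few to test. Of the 5 monocyte or neutrophil genes, led by Ly6c2 and Lyz2, 2 were called higher in each library. Their sum went from 74.9 to 118.7, with Ly6c2 at 46.35 and 111.7, Lyz2 at 23.8 and 3.72, and S100a8 at 0 counts in both libraries. For 6 dendritic cell genes, led by Xcr1 and Zbtb46, the sum was 7.56 and 8.32, but their counts depended on the gene table. Xcr1 had 176 and 134 counts in the large one, not called, and 59 and 4 in the small one, called lower in library 2. Flt3 was called higher there in the large table (61 and 76) and lower in the small one (48 and 3). In both tables Zbtb46 was called lower in library 2 and Cd209a higher. Siglech was called lower in the large table only. The size of the erythroid difference also depended on the gene table. Log2 ratios of Hba-a2 and Hbb-bs were -6.69 and -6.17 in the large one but -2.28 and -2.61 in the small one. In bulk RNA, fewer cells of a type and less RNA per cell cannot be told apart.

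The sequences that the results turn on most are 4 promoter stretches and 1 coding exon. The promoter stretches come from RefSeq (GRCm38.p6) windows running from 250 bases before to 50 bases after an annotated start. Windows were found for 33 of the 43 members, 37 windows in all. None was found for Tnfrsf11b, Tnfsf4, Tnfsf9, Cd40lg, Tnfsf12, Tnfrsf22, Tnfrsf26, Tnfrsf10b, Cd70 and Cd40. Each window was searched on both strands, overlapping matches included, for the kappaB consensus, the binding motif of NF-kappaB factors, and for TATAAA. The lines below are written 5′ to 3′ on the strand of the gene, with matches to either motif in capitals. Ltb is shown as the most abundant ligand RNA, and Tnf and Lta as its neighbours within 10.9 kb on chromosome 17. The inner start of Tnfrsf9 is shown because the estimated share of transcripts from it differed between the libraries, a poorly determined division. The last line is the Tnfrsf9 coding exon of 135 bases whose estimated skipping differed. Neither difference was tested.
Ltb (+ strand, chr17:35194319-35194438): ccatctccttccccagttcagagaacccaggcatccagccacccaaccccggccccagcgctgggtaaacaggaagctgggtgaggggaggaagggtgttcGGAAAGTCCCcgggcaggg
Tnf (- strand, chr17:35202008-35202127): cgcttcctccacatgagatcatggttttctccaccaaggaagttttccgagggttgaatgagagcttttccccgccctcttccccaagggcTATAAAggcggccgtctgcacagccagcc
Lta (- strand, chr17:35205429-35205548): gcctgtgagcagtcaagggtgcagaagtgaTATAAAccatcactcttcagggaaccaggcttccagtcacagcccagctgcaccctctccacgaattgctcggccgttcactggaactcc
Tnfrsf9 inner start (+ strand, chr4:150927947-150927976): agagcagctGGGGATTTCCCaggaggccct
Tnfrsf9 coding exon (+ strand, mm10, chr4:150935422-150935556, no motif marked): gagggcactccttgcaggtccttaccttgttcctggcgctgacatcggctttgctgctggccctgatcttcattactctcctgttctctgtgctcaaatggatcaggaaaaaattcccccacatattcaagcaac

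The kappaB consensus was found in 4 of the 37 member windows (10.8%), those of Ltb, Tnfrsf8, Tnfrsf25 and the inner start of Tnfrsf9. It was found in 8.46% of all 32851 windows of the same length. TATAAA was found in 6 member windows (16.2%), those of Tnf, Lta, Tnfsf11, Tnfsf18, Tnfrsf17 and Tnfrsf23, and in 13.6% of all windows. Counted from the RefSeq start, the Ltb match lay at bases -87 to -78. The Tnf match lay at bases -29 to -24 and the Lta match at bases -167 to -162. Both shares were near those of all windows, and the matches are a description of these letters only.

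Detection required a TPM of 1 or more in each of the libraries. TPM is per length, so it allows levels to be compared between genes. On this scale 27 of 43 members were detected, 16 of the receptors and 11 of the ligands. The members held 0.280% of all counts in library 1 (0.278 to 0.282, 95% Wilson interval) and 0.270% of those in library 2 (0.268 to 0.272). The median TPM of the detected members was 29.3, beside 29.9 over all 10818 detected protein-coding genes. Levels were concentrated in few genes: Cd27, Tnfrsf18 and Tnfrsf4 held 67.0% of the summed receptor TPM in library 1 and 67.7% in library 2, and Ltb alone held 72.3% and 75.5% of the summed ligand TPM.

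**Figure D1:**
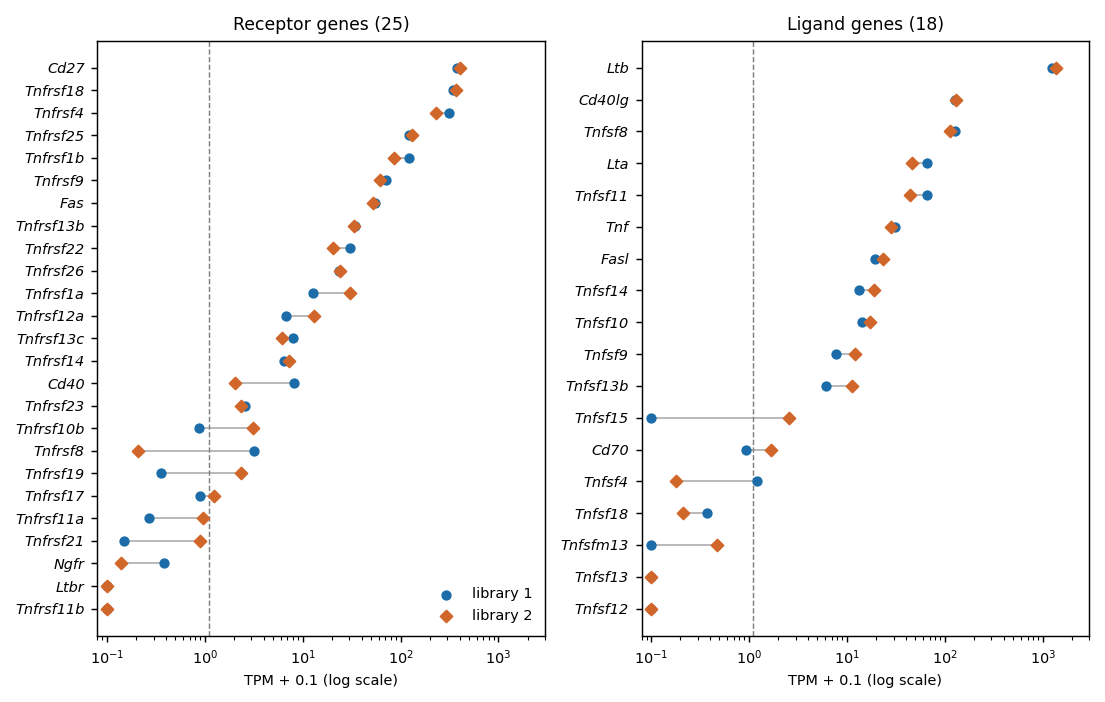
TPM plus 0.1 on a log axis for the 25 receptor and 18 ligand genes, with circles for library 1 and diamonds for library 2, joined by a line. The dashed line marks a TPM of 1. Ltb stands at 1252 and 1382, above every receptor, while Ltbr, Tnfrsf11b, Tnfsf12 and Tnfsf13 sit at 0 in both libraries.

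Among the costimulatory receptors, 7 of 8 were detected. Cd27, a receptor of T cell survival bound by CD70, was the highest receptor, with TPMs of 377 and 403 (390.1 ± 17.9, SD). Tnfrsf18, GITR, followed at 344 and 369 (357 ± 17.7). Tnfrsf4, OX40, had 312 and 233 (272 ± 55.9). Each of the 3 lay above at least 95.3% of detected protein-coding genes. Tnfrsf1b, the TNF receptor TNFR2 that lacks a death domain, had TPMs of 123 and 86.0. Tnfrsf9, 4-1BB, had 71.7 and 61.5. Both were lower in library 2. Cd27 and Tnfrsf18 were called slightly higher there, but with DESeq2's size factors Cd27 was called lower (log2 ratio -0.087) and Tnfrsf18 was not called, and with TMM factors Cd27 was not called. The remaining members of the class were low. Tnfrsf14, HVEM, a receptor of LIGHT, had TPMs of 6.38 and 7.22. Cd40, which on B cells and other antigen-presenting cells receives the CD40 ligand signal, had 8.03 and 1.93. Tnfrsf8, CD30, had 3.06 and 0.11 and was not detected by the rule.

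Of the death domain receptors, 3 of 6 were detected. Tnfrsf25, DR3, the receptor of TL1A, had TPMs of 121 and 131. Fas, the receptor of Fas ligand, had 55.4 and 52.7. Neither was called different in the large gene table, and Fas was called lower in library 2 in the small one, with a log2 ratio of -0.23. Tnfrsf1a, TNFR1, had 12.55 and 30.65, so that TNFR2 RNA exceeded TNFR1 RNA in both libraries. Tnfrsf10b, the mouse TRAIL receptor, had 0.77 and 3.00, Tnfrsf21, DR6, had 0.05 and 0.79, and Ngfr, the p75 neurotrophin receptor, had 0.28 and 0.04.

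The decoy and orphan receptors of chromosome 7, Tnfrsf26, Tnfrsf22 and Tnfrsf23, were all detected and lie within 78.2 kb of each other. Tnfrsf26 had TPMs of 23.6 and 24.2, Tnfrsf22 had 30.05 and 20.3, and Tnfrsf23 had 2.50 and 2.27. These genes are close paralogs, so the split of reads among them is uncertain. The soluble decoy of RANKL and TRAIL, Tnfrsf11b (osteoprotegerin), had 0 counts in both libraries. Tnfrsf13b, TACI, a receptor of BAFF and APRIL best known from B cells, had 34.4 and 33.7. Tnfrsf13c, the BAFF receptor, had 7.92 and 6.08, and Tnfrsf17, BCMA of plasma cells, had 0.79 and 1.15. The highest B cell markers, Ighm and Cd79b, had TPMs of 447 and 436, and of 65.2 and 42.8. The part of B cell RNA in the levels of Tnfrsf13b, Tnfrsf13c and Cd40 was not tested. Among the other receptors, Tnfrsf12a, the TWEAK receptor Fn14, had 6.65 and 12.9. Ltbr, the lymphotoxin beta receptor of stromal and myeloid cells, had 0 counts in both libraries in either gene table.

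The ligands were led by Ltb, lymphotoxin beta, which anchors lymphotoxin alpha in the membrane. Its TPM of 1252 in library 1 and 1382 in library 2 (1317 ± 92.2, SD) placed it above 99.4% of detected protein-coding genes. Lta, lymphotoxin alpha, which acts as a secreted trimer or with Ltb, had 66.0 and 46.25. Tnf itself had 30.6 and 27.95. The 3 genes are neighbours on chromosome 17, in the order Ltb (chr17:35194439-35196320), Tnf (chr17:35199381-35202007) and Lta (chr17:35203165-35205351) in mm10. Between the libraries Ltb was called slightly higher in library 2, Lta was called lower, and Tnf was not called. With DESeq2's size factors all 3 were called lower in library 2, at log2 ratios of -0.032 for Ltb, -0.30 for Tnf and -0.68 for Lta, and Tnf was called lower with TMM factors too.

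Among the costimulatory ligands, Cd40lg, the helper T cell signal to CD40, had TPMs of 127 and 130.2. Tnfsf8, CD30 ligand, had 127 and 112. Both stood far above the other 6 ligands of this class. Tnfsf14, LIGHT, had 13.3 and 18.8, and Tnfsf9, 4-1BB ligand, had 7.70 and 12.1. Cd70 had 0.84 and 1.58, Tnfsf4, OX40 ligand, had 1.11 and 0.08, Tnfsf18, GITR ligand, had 0.27 and 0.11, and Tnfsf15, TL1A, had 0 and 2.48. None of these last 4 was detected in both libraries. Tnfsf11, RANKL, the ligand that drives osteoclast formation and is also made by activated T cells, had 66.5 and 43.6. The death ligands Fasl (19.15 and 23.3) and Tnfsf10, TRAIL (14.05 and 17.0), were detected at lower levels. Tnfsf13b, BAFF, had 6.01 and 11.1. Tnfsf13, APRIL, and Tnfsf12, TWEAK, had 0 counts in both libraries, and Tnfsfm13, which spans both, had 0 and 5 counts. Tnfsfm13, Tnfsf12 and Tnfsf13 overlap within 13.5 kb of chromosome 11, so reads among them could not be told apart.

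Ligands and receptors were then set side by side over a fixed list of 24 known pairs. Tnfsf10 was paired there with Tnfrsf10b only, not with the decoys Tnfrsf22, Tnfrsf23 and Tnfrsf11b. The counts of pairs below therefore depend on the list. Both sides were detected in 10 pairs, the receptor alone in 6, the ligand alone in 7 and neither in 1. Of the 10 pairs with both sides, the receptor had the higher TPM in both libraries in 5 and the ligand in 3, and the order differed between the libraries in 2. The 3 highest receptors belonged to the pairs with a receptor alone. The ratio of Cd27 to Cd70 was 449 in library 1 and 255 in library 2. Tnfrsf18 exceeded Tnfsf18 by a ratio of 1275 and 3357, and Tnfrsf4 exceeded Tnfsf4 by 281 and 2907, with ligand counts of 33 and fewer behind these ratios.

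Pairs with the ligand alone showed the opposite pattern. Ltb and Tnfsf14 faced an Ltbr of 0 counts, and Tnfsf8 exceeded Tnfrsf8 by 41.4 and 1022. The ratio of 1022 rested on 5 counts of Tnfrsf8 in library 2 of the large gene table. The small gene table held 40 counts of Tnfrsf8 there, beside 909 of Tnfsf8. Tnfsf11 exceeded its signalling receptor Tnfrsf11a, RANK, by 391 and 50.1. The ratio of Tnfsf10 over Tnfrsf10b was 18.2 and 5.67, and that of Tnfsf13b over Tnfrsf17 was 7.61 and 9.63.

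Among pairs with both sides detected, Fas exceeded Fasl by 2.89 and 2.26, Tnfrsf9 exceeded Tnfsf9 by 9.31 and 5.07, and Tnfrsf1b exceeded Lta by 1.86 in both libraries. Cd40lg exceeded Cd40 by 15.8 and 67.5. The order of Tnf and Tnfrsf1a differed, with a ratio of Tnf over Tnfrsf1a of 2.44 in library 1 and 0.912 in library 2. So did that of Tnfsf13b over Tnfrsf13c, at 0.759 and 1.82.

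**Figure D2:**
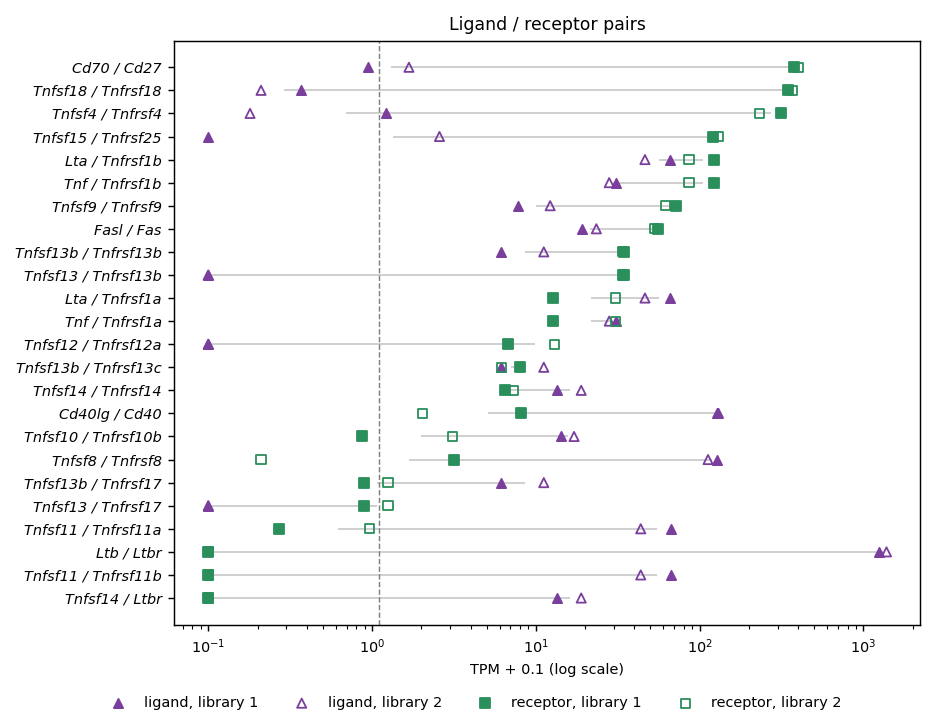
TPM plus 0.1 on a log axis for the 24 ligand and receptor pairs, ordered by receptor TPM, with triangles for ligands, squares for receptors, filled symbols for library 1 and open symbols for library 2. The dashed line marks a TPM of 1 and grey lines join the means. In the top 3 pairs the receptor TPM is at least 233 and the ligand TPM at most 1.58, while Ltb over Ltbr shows the reverse.

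The libraries were compared gene by gene on rounded expected counts, with a 2-sided exact binomial test against their totals and Benjamini-Hochberg adjustment over all 24253 genes with at least 10 counts. Of the 43 members 38 could be tested. Tnfsf13, Tnfsf12, Tnfsfm13, Ltbr and Tnfrsf11b had too few counts. Called higher in library 2 were 15 members (39.5%), beside 46.4% of all genes tested. Called higher in library 1 were 12 members (31.6%), beside 23.9% of all genes, and 11 were not called. With DESeq2's size factors, which moved the median log2 ratio of all detected genes from 0.01 to -0.14, these counts were 10 and 19. The direction of ratios near 0 therefore rested on the scaling, and Ltb, Cd27, Cd40lg, Tnfrsf25 and Tnfrsf26 changed sign. At least 2-fold higher in library 2 were 6 members (15.8%), beside 31.0% of all genes, and 5 (13.2%) were at least 2-fold higher in library 1, beside 8.33%. Among genes with at least 100 counts, 30 members were tested. Of these, 4 (13.3%) passed 2-fold toward library 2, beside 9.05% of all genes, and 2 (6.67%) toward library 1, beside 5.04%. The median log2 ratio was 0.04 over the members tested and 0.23 over all genes tested. Among genes with at least 100 counts these medians were 0.04 and 0.01. At that depth 13 of the 30 members were called higher in library 2 and 9 in library 1, beside 37.4% and 34.5% of all genes. The gap to all genes tested therefore rested on genes with few counts. Over detected genes the median absolute log2 ratio was 0.28 for the members and 0.28 for all genes, so the size of the differences was that of the libraries as a whole.

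**Figure D3:**
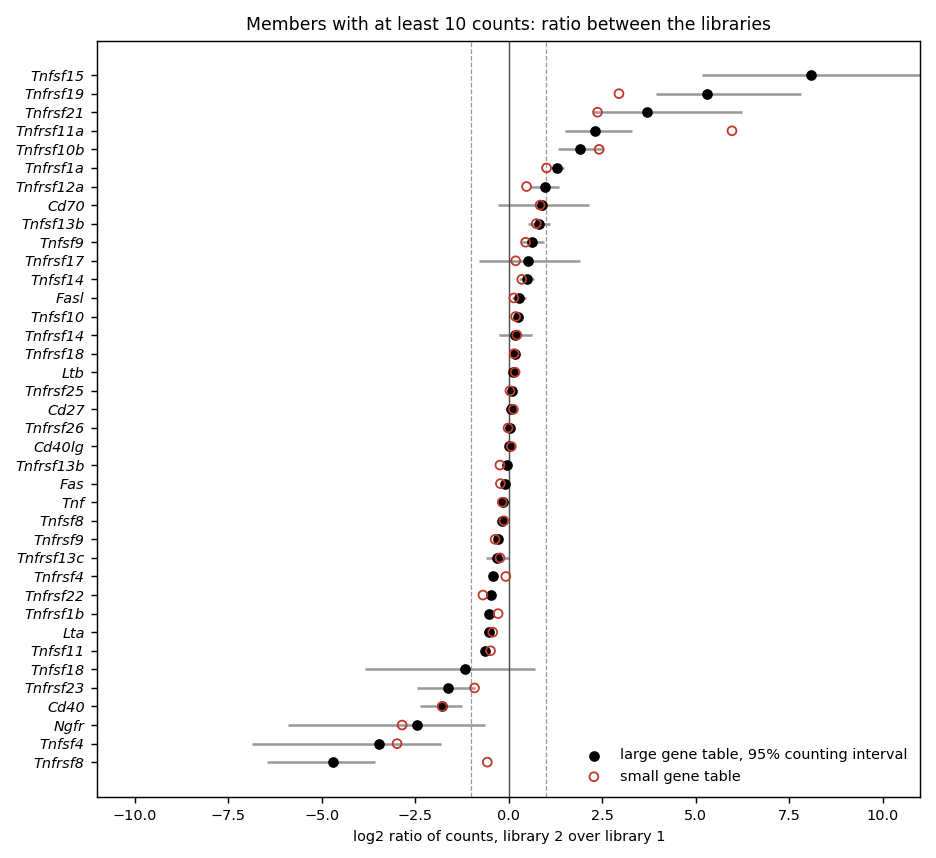
Log2 ratio of depth-scaled counts, library 2 over library 1, for the 38 members tested, with 95% counting intervals as bars (black points, large gene table). Red circles give the same ratio in the small gene table where it held at least 10 counts, and dashed lines mark 2-fold. The 12 members with a mean TPM of at least 50 lie between -0.63 and 0.17, and Tnfrsf8 lies at -4.69 in the large table and -0.58 in the small one.

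Of the detected members, 3 differed at least 2-fold. Tnfrsf1a had 408 counts in library 1 and 827 in library 2, a log2 ratio of 1.29 (95% counting interval 1.12 to 1.47). Its adjusted p was 4.77e-51 by the exact binomial test, and the small table gave 291 and 516 counts and a log2 ratio of 1.01. Cd40 had 147 and 35 counts, a log2 ratio of -1.78 (-2.37 to -1.26), and 95 and 24 counts in the small table. Tnfrsf23 had 72 and 19 counts, a log2 ratio of -1.62, while its TPMs were 2.50 and 2.27. Its count difference lay in Tnfrsf23-201, a nonsense-mediated decay transcript of 3353 bases, with 55.9 and 0 expected counts. The retained-intron Tnfrsf23-204 of 700 bases had 16 and 15, and the protein-coding transcripts of Tnfrsf23 had 0 in library 1. In the small table Tnfrsf23 had 7 and 3 counts and was not called. Tnfrsf1a and Cd40 were thus the detected members that differed 2-fold in both tables.

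The other detected members differed less. Tnfrsf1b had 7606 counts in library 1 and 4397 in library 2, a log2 ratio of -0.52 (-0.57 to -0.47). Tnfsf11 had 2412 and 1293 counts (-0.63), Lta had 1461 and 837 (-0.53), and Tnfrsf9 had 2376 and 1624 (-0.28). These 4 were called lower in library 2 in both gene tables. Tnfrsf4, with 4674 and 2875 counts, had a log2 ratio of -0.43 in the large table but of -0.08 in the small one, where its adjusted p was 0.232 by the same exact binomial test. In the other direction, Tnfsf13b had 160 and 232 counts (0.81) and Tnfsf9 had 159 and 204 (0.63), both called in both tables. Tnfrsf12a had 93 and 150 counts (0.96), and Tnfsf14 had 397 and 459 (0.48), both called in the large table only. Of the 7 regulatory T cell markers 5 were called lower in library 2 and none higher in the large table, with Ctla4 at a log2 ratio of -0.38. Of all genes tested 23.9% were called lower in library 2, and 34.5% of those with at least 100 counts. In the small table Ikzf2 and Ikzf4 were called lower and Cd4 and Cd3e higher. The part of these shifts in the differences of Tnfrsf1b, Tnfsf11 and Lta was not tested.

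The steepest differences were in members with few counts. Tnfsf15 had 0 counts in library 1 and 111 in library 2, at least 44.7-fold higher when library 1 is set at the limit of 3 counts (the 95% counting interval begins at 35.7-fold), and 0 and 7 in the small table. Tnfrsf19, TROY, a receptor of stem and neural cells, had 3 and 113 counts (4 and 30 in the small table), and Tnfrsf10b had 31 and 97 (6 and 30). Tnfrsf11a had 14 and 59 counts and Tnfrsf21 had 3 and 37. All 5 were higher in library 2. The macrophage markers were higher in library 2 as well, 8 of 8 by at least 2-fold, beside 31.0% of all genes tested. They included C1qb at 19 and 246 counts, C1qa at 57 and 207, Csf1r at 12 and 492 and C1qc at 0 and 223. Their part in the differences of Tnfrsf1a, Tnfsf15, Tnfsf13b, Tnfrsf11a and Tnfrsf21 was not tested. Lower in library 2 were Tnfsf4 (33 and 2 counts), Ngfr (16 and 2) and Tnfrsf8. Tnfrsf8 had 171 and 5 counts in the large table, a log2 ratio of -4.69 (-6.47 to -3.57), but 68 and 40 in the small table, where its log2 ratio of -0.58 was not called with an adjusted p of 0.0748 by the exact binomial test. Of the 8 B cell markers 6 were called higher in library 1, beside 23.9% of all genes tested and 34.5% of those with at least 100 counts. Blnk was among them at 326 and 114 counts, while Cd22 was higher in library 2 and Pax5 was not called. The part of these B cell markers and of the dendritic cell genes in the difference of Cd40 was not tested.

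Transcript tables gave the makeup of each gene. The members had 133 annotated transcripts. Of the 27 detected members, 6 had 1 transcript and 21 had several, and the transcript with the highest TPM was the same in both libraries for 24, with Tnfrsf9, Tnfrsf14 and Tnfsf13b as the exceptions. For 25 members this transcript was annotated as protein-coding in both libraries. The exceptions were Tnfrsf23, led by a retained-intron transcript, and Tnfsf13b, led in library 1 by a transcript annotated for nonsense-mediated decay. Transcripts not annotated as protein-coding held 29.0% of Cd27 in library 1 and 32.4% in library 2, 36.1% and 31.7% of Tnfrsf18, 23.7% and 26.5% of Tnfrsf4, and 33.8% and 35.1% of Tnfrsf25. The shares of these abundant receptors hardly moved between the libraries. Other members had shares that moved more, at 81.8% and 60.5% for Tnfsf13b and 16.7% and 8.77% for Fas. On few counts, they were 100% and 74.9% for Tnfrsf23 and 15.1% and 29.9% for Cd40. Ltb was divided between Ltb-203 with 185 codons (53.3% and 55.5% of its TPM) and the full-length Ltb-201 with 306 codons (42.8% and 41.1%).

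Tnfrsf9 had the largest number of transcripts among the detected members, 9, and their shares differed between the libraries in 2 ways. First, Tnfrsf9-204 and Tnfrsf9-202 skip the coding exon of 135 bases (45 codons) printed above, which encodes the membrane-spanning stretch of 4-1BB. As background, 4-1BB made without this exon is a known soluble form of the receptor. The transcripts that skip it had 620 expected counts of 2376 in library 1 and 657 of 1624 in library 2, or 28.1% and 41.1% of the gene's TPM. Posterior means of Tnfrsf9-204 were 601 ± 84.4 and 643 ± 67.6 counts (posterior SD as deposited). Transcripts with the exon went from 1751 to 955 expected counts, so the lower count of the gene in library 2 lay in the transcripts with the exon. Second, transcripts from the upstream start (Tnfrsf9-201 and Tnfrsf9-204, RefSeq start at chr4:150920155) held 28.4% of TPM in library 1 and 72.1% in library 2. Those from the inner start with the kappaB match (mainly Tnfrsf9-205, RefSeq start at chr4:150927999) held 68.9% and 21.7%. This division was poorly determined. The posterior mean of Tnfrsf9-205 was 1210 ± 303 counts in library 1 and 456 ± 228 in library 2, and that of Tnfrsf9-201 was 499.7 ± 290.4 and 461 ± 231. By posterior mean counts, a share of counts and not of TPM, the inner start held 51.3% and 28.3%. Neither difference was given a test, since the transcripts of 1 gene share reads.

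**Figure D4:**
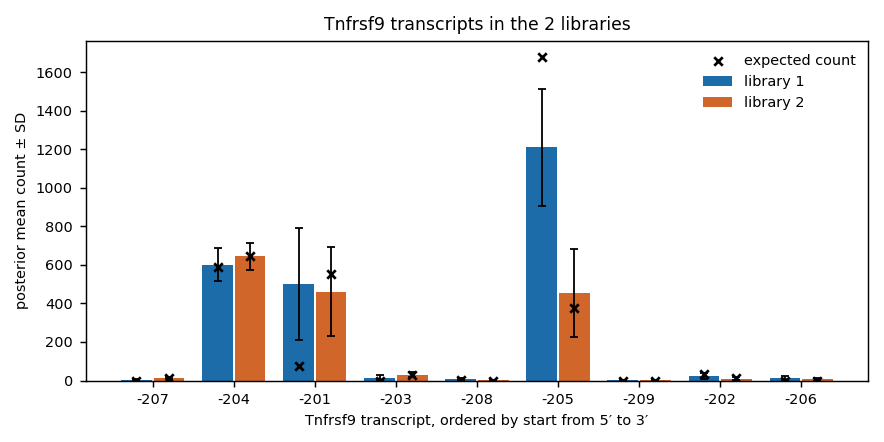
Posterior mean counts of the 9 Tnfrsf9 transcripts in library 1 (blue) and library 2 (orange), ordered by start from 5′ to 3′, with posterior SDs as error bars and crosses at the expected counts. Tnfrsf9-204, which skips the membrane exon, stands at 601 and 643, and Tnfrsf9-205 at 1210 and 456 with wide SDs.

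The start shares of Tnfsf13b also differed, without a test. Its transcript from the first start, Tnfsf13b-205, held 59.6% of TPM in library 1 and 26.5% in library 2. The transcripts from the next start, among them the protein-coding Tnfsf13b-201 with 290 codons and Tnfsf13b-203 with 309, held 18.3% and 49.6%. By posterior mean counts, a share of counts and not of TPM, the first start held 64.7% and 32.4%. By expected counts it held 111 of 160 and 74.7 of 232. The gene had 160 and 232 counts, so these shares rest on few reads, and the posterior mean of Tnfsf13b-205 was 104 ± 15.6 counts in library 1 and 75.1 ± 19.2 in library 2.

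Members lay on 14 chromosomes, and 24 of 43 lay in 9 blocks in which neighbouring members were at most 500 kb apart. Neighbours were often unequal in level. Within 130 kb of chromosome 6, Cd27 had a mean TPM of 390.1, Ltbr had 0 counts and Tnfrsf1a a mean of 21.6. Tnfrsf4 (chr4:156013843-156016612) and Tnfrsf18 (chr4:156026164-156028895) lie head to tail within 15.1 kb and were both among the highest receptors. Tnfsf8 and Tnfsf15 share 134 kb of chromosome 4, at mean TPMs of 119.6 and 1.24. On chromosome 1, Fasl was detected and its neighbours Tnfsf4 and Tnfsf18 were not.

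The intracellular side of the pathway was present throughout. Of 44 genes in 6 lists, 43 were detected, Rhbdf1 being the exception with 21 and 0 counts. Called higher in library 2 were 19 (43.2%, beside 46.4% of all genes), called higher in library 1 were 9 (20.5%, beside 23.9%), and 16 were not called. With DESeq2's size factors these counts were 8 and 20, so the balance of directions rested on the scaling. The lists had a median log2 ratio of 0.06, beside 0.23 over all genes tested. At 100 counts or more, which 43 of the 44 genes had, the median over all genes was 0.01. At that depth 19 pathway genes were called higher in library 2 and 8 in library 1, beside 37.4% and 34.5% of all genes. All 7 TRAF adaptors, which carry signals from the receptors, were detected. Traf1 had TPMs of 205 and 249, Traf5 had 129 and 124, and Traf2 had 56.2 and 67.1. Traf1, Traf2 and Traf6 were called higher in library 2 and Traf3, a brake on the non-canonical pathway, lower, with log2 ratios between -0.23 and 0.21. All 7 genes of death domain signalling were detected, led by the initiator caspase Casp8 (144 and 169), its inhibitor Cflar (94.2 and 102.8) and the TNFR1 adaptor Tradd (74.1 and 54.3). Mlkl, the effector of necroptosis, had 55 and 96 counts and a log2 ratio of 1.07.

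Of all genes with at least 100 counts, 37.4% were called higher in library 2 and 34.5% in library 1. Of the 13 ubiquitin ligases, deubiquitinases and TAK1 genes, 5 (38.5%) were higher in library 2 and 1 (7.69%), Tnip1, in library 1. The linear ubiquitin ligase subunits Rbck1 (250.5 and 247.3) and Sharpin (190.1 and 207) were highest, and Tab2 and Otulin had the largest log2 ratios among those called (0.41 and 0.23). Of the 9 canonical NF-kappaB genes, 3 (33.3%) were called in each direction, shares near those of all genes at that depth. The inhibitor Nfkbia (355 and 381), the kinase Ikbkb (185 and 198) and the subunit Rela (144 and 142) led. Ikbkg and Rel differed most among those called, with log2 ratios of -0.20 and -0.18. Of the 3 non-canonical genes, Nfkb2 (45.5 and 71.2, log2 ratio 0.62) and the kinase Map3k14 (29.6 and 40.6, 0.39) were higher in library 2 and Relb (75.7 and 78.4) was not called. Of the 5 genes for cutting ligands and receptors, Adam10 had 58.9 and 80.1 and a log2 ratio of 0.43, and Adam17, which sheds TNF and its receptors, had 49.6 and 43.4 and was lower in library 2 (-0.19). The protease Furin had 34.3 and 42.6 (0.28). Among the superfamily genes with other symbols, Relt had 36.0 and 27.6, while Eda had 0 counts in both libraries, Edar had 2 and 15 and Eda2r had 0 and 27.

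**Figure D5:**
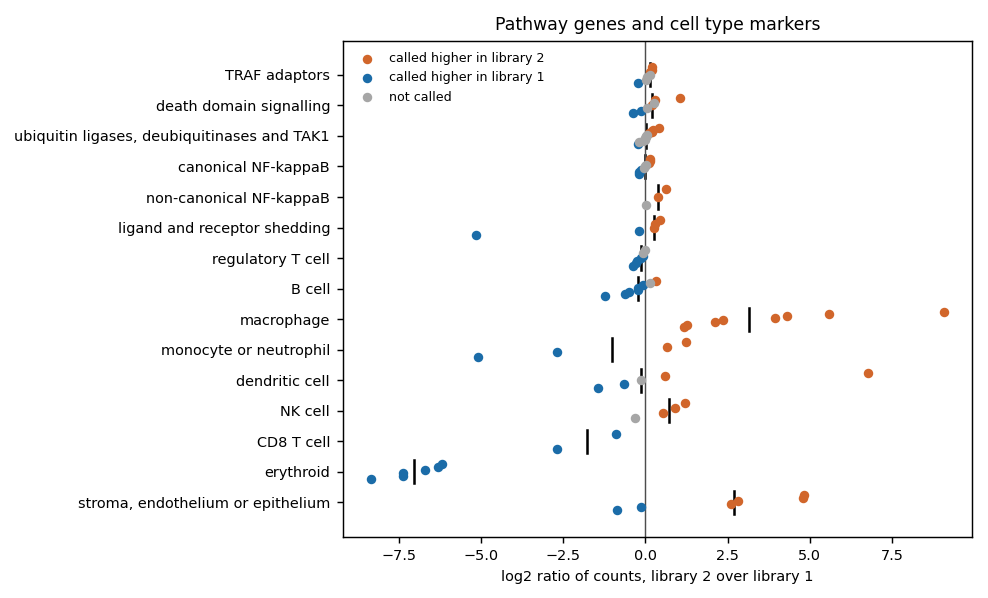
Log2 ratio of counts in the large gene table, library 2 over library 1, for each tested gene of 6 pathway lists and 9 marker lists. Points are coloured by call, with the median as a black bar. Pathway genes other than Rhbdf1 lie between -0.39 and 1.07, whereas every macrophage gene lies at or above 1.19 and every erythroid gene at or below -6.17.

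The small gene table held fewer counts than the large one, and unequally so. Over members with at least 100 counts, its counts were 33.0% of those of the large table in the median, beside 45.9% over all genes, and ranged from 6.31% (Tnfsf15) and 9.40% (Ltb) to 104% (Tnfrsf14). In it Ltb had 1835 and 1815 counts, and Cd27, Tnfrsf18, Tnfrsf1b and Tnfrsf4 had 1458, 1560, 1663 and 1395 in library 1. Ltb kept the highest count there, by a far smaller margin, and that table gives no lengths by which to compare levels.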

How the data were processed

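RNA-seq values of 2 technical libraries of 1 biosample were used. Per the deposited description, the authors derived the large gene and transcript tables from transcriptome alignments to mm10 with GENCODE M21, and the small gene table from an mm10 alignment with GENCODE M4. The large tables hold expected counts (estimates that share ambiguous reads), TPM and FPKM, per the file headers. The transcript table adds each transcript as a percent of its gene, posterior mean counts and a posterior SD (entered as a score), per the file headers. The small table holds deposited whole-number counts. Aligner, quantifier and use of strand: not given in the sources used here, so overlapping and antisense genes cannot be told apart. Rows that name no gene (0.201% of counts in library 1 and 0.235% in library 2) were left out.

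Expected counts were rounded. Ratios are library 2 over library 1 of counts plus 0.5, divided by library totals. A call required an adjusted p under 0.05 in an exact binomial test (scipy 1.17.1) with Benjamini-Hochberg adjustment. The test compares these 2 libraries, and the test, intervals (95%, Clopper-Pearson for ratios, Wilson for shares) and limits cover counting error only, since PCR copies are not independent molecules. The test was tried on simulated counts first. Alternatives were edgeR 4.0.16 TMM factors, DESeq2 1.42.0 size factors (R 4.3.3), the small table, other thresholds, FPKM and each library alone. The members, pairs and lists were chosen with earlier results of these data known. Named were all members, and of each pathway list the 3 highest, the 2 most different and those under a TPM of 1, and of each marker list of another cell type the 2 highest and those at 0 counts. Foxp3 was named as a check of the label. Further marker genes were picked with their values in view. The values of 1 marker gene are not reported here.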

Additional observations from a re-analysis of the deposited data

How the results depend on the processing

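Of 27 member calls, 26 were the same under edgeR's TMM factors, 22 under DESeq2's size factors, 27 without a count filter and 18 of the 26 that could be tested in the small gene table. DESeq2's size factors put 39.0% of all genes higher in library 2 and 32.1% in library 1. They turned the log2 ratios of Ltb to -0.032, Cd27 to -0.087 and Cd40lg to -0.13, each then called lower in library 2. Tnfrsf25 (-0.063) and Tnfrsf26 (-0.13) also changed sign but were not called under either scaling. With these factors 19 members were called higher in library 1, and 8 pathway genes were called higher in library 2 and 20 in library 1. The cause was not tested. In the small table, pathway genes called higher in library 2 numbered 10, and 3 members were at least 2-fold higher in library 1, against 2 members among genes with at least 100 counts, where fewer genes were tested. The 8 calls lost in the small table were those of Tnfrsf4, Tnfsf8, Fasl, Tnfsf14, Tnfsf10, Tnfrsf12a, Tnfrsf23 and Tnfrsf8. At a TPM threshold of 0.1, both sides were detected in 16 pairs. With 1 library alone, 29 to 32 members, 17 to 19 receptors, 12 to 13 ligands and 12 to 14 pairs were detected. The main limit is the design: 1 biosample and no other group.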
